A study of Mus musculus with 18 samples.

Results

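The comparison set 5 mM octanoate against 1 mM octanoate in AML12 cells, an immortalized mouse hepatocyte line from ATCC, by microarray. It used 8 of the 18 arrays of the series, the 4 labelled 5 mM and the 4 labelled 1 mM. All cells had been seeded at 350000 per well, left overnight in 6-well plates and then kept for 24 h in complete DMEM medium with 10% fetal bovine serum, to which PBS (n = 5), 1 mM (n = 4), 2 mM (n = 5) or 5 mM (n = 4) octanoate was added. AML12 cells were established from hepatocytes of a mouse carrying a human TGF-alpha transgene, and every group is this 1 line. No label states that the replicates came from separate cultures, so p-values reflect only how these samples vary, and that variation may be technical. The title of the series concerns lipids as a source of carbon for histone acetylation. Both groups received the fatty acid, so the contrast is one of dose.

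Octanoate is a medium-chain fatty acid that enters mitochondria largely without the carnitine shuttle and is broken down by beta-oxidation to acetyl-CoA. Fatty acids also bind PPAR alpha, a nuclear receptor that in liver raises genes of fatty acid oxidation and ketone body formation. Acetyl-CoA is the donor for histone acetylation. In dividing cells, genes of DNA replication peak in S phase and genes of the mitotic spindle in G2 and M phase, the latter often through promoters with a CHR element and CCAAT boxes, and most histone genes are read during S phase.

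Levels are log2 values of the normalized signal, and a difference is the mean at 5 mM minus the mean at 1 mM, with the standard error of the fit. Of 45281 probes, 20536 (45.4%) were detected at p under 0.05 on at least 4 of the 18 arrays and were tested, and they stood for 10605 named genes. A gene was called higher or lower at adjusted p under 0.05. Detected probes per array numbered 18100 ± 317 (SD, n = 4) at 1 mM and 19279 ± 551 (n = 4) at 5 mM, with no overlap between the groups and a difference of 1179 (exact two-sided permutation test, p = 0.0286, the smallest that 70 regroupings allow). The number of arrays limits the precision, and the median standard error of a difference was 0.121. Of the 1 mM arrays, replicates 1 and 4 lay apart from the other 1 mM arrays on principal components 3 and 4, which held 3.62% and 3.39% of the variance. The slides carry 6 arrays each, and no BeadChip held both compared groups: 1 mM replicate 1 was on the first with all PBS arrays, 1 mM replicates 2 to 4 were on the second with 2 mM replicates 1 to 3, and all 5 mM arrays were on the third with 2 mM replicates 4 and 5. A fit with BeadChip as a term therefore reaches this contrast only through the 2 mM arrays, and 1 mM replicate 1 adds nothing to it. For the count of detected probes, dose and BeadChip cannot be told apart. On the 2 mM arrays this count was 17910 to 18134 on the second BeadChip, and 18323 and 18341 on the third.

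AML12 cells held part of the hepatocyte programme. Transthyretin, apolipoproteins B, C1 and E and Hnf4a were measured, whereas the probes for Alb, Apoa2, Apoc3, Apoh, Cps1, Tat, Tdo2 and Fgb were not detected on any array. Of 31 hepatocyte markers with a probe, 20 were detected on some 1 mM array and 22 on some 5 mM array. The summed linear signal of the hepatocyte list was 25544 to 27607 at 1 mM and 46703 to 49837 at 5 mM. Among markers of other cells, Col1a1, Col3a1, Pdgfrb, Adgre1 and Epcam were not detected on any array, and Ptprc and Pecam1 were each detected on 1. Summed signals were 62 to 98 at 1 mM against 96 to 128 at 5 mM for the fibroblast and stellate list, 53 to 81 against 47 to 68 for the endothelial list, 5195 to 5798 against 5524 to 6293 for the biliary and progenitor list, and 2469 to 2697 against 1383 to 1568 for the macrophage list, in which Cd14 was the gene that fell. In bulk RNA, fewer cells of a type and less RNA per cell cannot be told apart.

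The sequences below show the start regions of 5 genes that fell strongly at 5 mM, because mitotic and S-phase genes are known for shared promoter elements. Each runs 5′ to 3′ along the gene's strand from 250 bases before to 50 bases after the RefSeq start on GRCm38.p6. Capitals mark the CHR element (TTTGAA, or TTCAAA on the other strand) and the CCAAT box (CCAAT, or ATTGG on the other strand). The regions are chr4:118437294-118437593 on the minus strand for Cdc20, which activates the ligase that starts anaphase, chr7:122159185-122159484 on the plus strand for Plk1, a mitotic kinase, chr4:124936868-124937167 on the minus strand for Cdca8, a subunit of the chromosomal passenger complex, chr11:117848987-117849286 on the plus strand for Birc5, another subunit of that complex, and chr13:22042900-22043199 on the minus strand for H2ac11, a replication-dependent H2A histone.
Cdc20: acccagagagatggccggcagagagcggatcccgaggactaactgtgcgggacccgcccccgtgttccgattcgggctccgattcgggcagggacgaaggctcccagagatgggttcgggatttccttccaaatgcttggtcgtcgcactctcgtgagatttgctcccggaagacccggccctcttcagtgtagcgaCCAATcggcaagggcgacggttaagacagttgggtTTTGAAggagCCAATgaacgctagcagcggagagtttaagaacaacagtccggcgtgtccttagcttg
Plk1: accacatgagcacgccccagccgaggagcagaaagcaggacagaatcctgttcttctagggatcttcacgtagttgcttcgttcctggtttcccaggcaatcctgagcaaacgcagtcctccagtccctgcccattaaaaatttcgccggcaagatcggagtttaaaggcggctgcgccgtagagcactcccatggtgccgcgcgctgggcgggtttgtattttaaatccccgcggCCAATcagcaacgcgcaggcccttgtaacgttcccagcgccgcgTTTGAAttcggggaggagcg
Cdca8: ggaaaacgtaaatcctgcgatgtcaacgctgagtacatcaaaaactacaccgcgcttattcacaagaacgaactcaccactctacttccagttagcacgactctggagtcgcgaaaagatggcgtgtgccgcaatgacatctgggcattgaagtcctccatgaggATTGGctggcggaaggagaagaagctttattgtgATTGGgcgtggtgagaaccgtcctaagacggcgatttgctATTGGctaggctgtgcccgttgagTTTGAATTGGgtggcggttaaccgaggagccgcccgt
Birc5: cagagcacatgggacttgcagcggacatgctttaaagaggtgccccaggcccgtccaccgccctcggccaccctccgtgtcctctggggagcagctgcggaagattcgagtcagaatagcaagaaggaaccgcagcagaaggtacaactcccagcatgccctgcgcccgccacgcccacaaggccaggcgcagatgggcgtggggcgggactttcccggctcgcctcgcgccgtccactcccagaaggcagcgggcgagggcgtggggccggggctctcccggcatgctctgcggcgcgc
H2ac11: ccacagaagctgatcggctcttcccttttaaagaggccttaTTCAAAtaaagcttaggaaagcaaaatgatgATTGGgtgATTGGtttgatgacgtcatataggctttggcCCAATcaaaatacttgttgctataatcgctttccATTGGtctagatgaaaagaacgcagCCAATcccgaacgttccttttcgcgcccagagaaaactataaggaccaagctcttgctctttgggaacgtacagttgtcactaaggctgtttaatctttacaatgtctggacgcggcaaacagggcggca
In Cdc20 the CHR element began 18 bases before the start site, between CCAAT boxes at 53 and 8 bases before it. In Plk1 a CCAAT box lay 14 bases before the start and the CHR element 31 bases after it. In Cdca8 the CHR element, 14 bases after the start, overlapped 1 of 4 CCAAT boxes. The H2ac11 window held 5 CCAAT boxes, and its CHR match lay 209 bases before the start. The Birc5 window held neither motif, although Birc5 was the third-lowest gene of the comparison.

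Over all 32851 RefSeq promoters of 27025 genes, 17.9% held the CHR letters, 37.4% a CCAAT box and 6.95% both. The 27 promoters matched to 24 of 28 measured mitotic genes held the CHR letters in 22 (81.5%), a CCAAT box in 20 (74.1%) and both in 20 (74.1%). Among 40 promoters of replication-dependent histone genes, 42.5% held the CHR letters and 85% a CCAAT box. Among 26 promoters of replication fork genes the shares were 7.69% and 42.3%, and among 18 of origin licensing genes 33.3% and 66.7%. The rising groups gave 10.5% and 47.4% of 19 promoters for p53 targets and 3.85% and 73.1% of 26 for glutathione S-transferases. A match of letters describes the window and is not a measured binding site.

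Between 1 mM and 5 mM, 8191 of the 20536 probes were called (39.9%), of which 4338 (21.1%) were higher and 3853 (18.8%) lower. An unadjusted p under 0.05 was reached by 9683. By gene, 2671 (25.2%) were higher, 2095 (19.8%) lower and 5839 not called, with a median difference over all genes of 0.03. At least 2-fold differences were called for 378 genes (3.56%) upward and 325 (3.06%) downward, and at 4-fold the balance by probe was 48 upward against 126 downward. The 4 arrays of the groups did not overlap for 2488 genes that were higher (23.5%) and 1930 that were lower (18.2%). Median scaling in place of quantile normalization left the number of calls near the same, at 8433, but placed 7077 higher and 1356 lower, since it moved the median of all probes from 0.01 to 0.22, and the share called higher from 53% to 83.9%. Small differences below are therefore relative to the quantile-normalized distribution. With BeadChip as a term the calls numbered 4460, of which 2378 were higher and 2082 lower, at a median standard error of 0.196. By gene this gave 1568 higher (14.8%) and 1130 lower (10.7%). All 703 genes with a called difference of at least 2-fold kept their sign in that fit, and 694 of them were called there the same way. Without 1 mM replicates 1 and 4 there were 7049 calls.

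**Figure D1:**
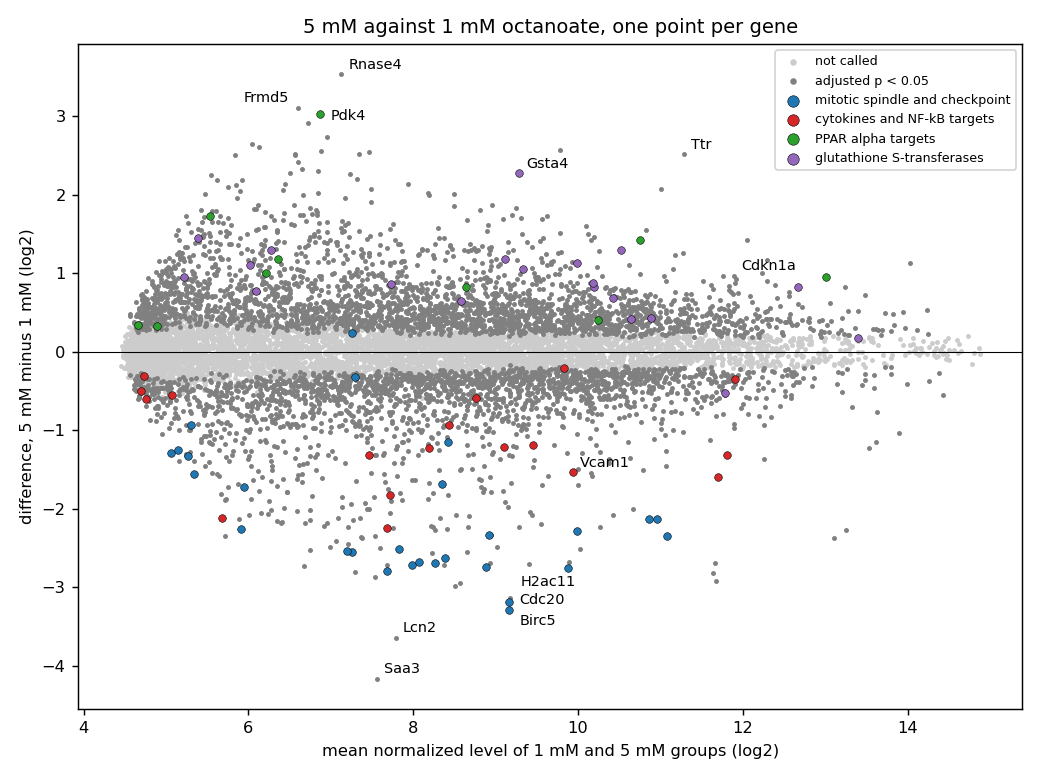
Difference between 5 mM and 1 mM (log2) against the mean level of both groups (log2), with 1 point for each of 10605 genes. Grey shades separate called from other genes, and colours mark 4 gene lists. Mitotic genes lie mostly between -1 and -3.29, cytokine genes lie below 0, and PPAR alpha targets and glutathione S-transferases lie mostly above 0.

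The mitotic spindle and checkpoint genes gave the lowest median of the 42 gene lists examined. Of 28 measured, 27 fell and 0 rose, with a median difference of -2.31 (-2.26 with BeadChip as a term). Over all genes 19.8% fell and 25.2% rose. Spc24, a kinetochore subunit, was the member not called, at 0.24, and Bub3, a checkpoint protein, fell by only 0.33.

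Birc5 (survivin) had levels of 10.75, 10.73, 10.80 and 10.96 on the 1 mM arrays and 7.76, 7.25, 7.44 and 7.62 on the 5 mM arrays. Its 2 mM arrays, at 10.36 to 10.65, were all below the 1 mM arrays and all above the 5 mM arrays, with 10% of the change present. The fall was 3.29 ± 0.10, or 9.81-fold (adjusted p = 4.18e-15), and its 3 probes gave -3.38 to -3.23. Cdc20 was at 10.88, 10.79, 10.90 and 10.44 at 1 mM and at 7.67, 7.50, 7.66 and 7.43 at 5 mM. It fell 9.14-fold, and its 4 probes gave -3.24 to -3.04. The 2 groups of arrays lay far apart for both genes, and the within-group spread was under 1 log2 unit.
Plk1 stood at 11.31, 11.29, 11.14 and 11.26 at 1 mM and at 8.60, 8.42, 8.33 and 8.65 at 5 mM, a 6.73-fold fall. Cdca8 stood at 10.12, 10.32, 10.31 and 10.28 against 7.67, 7.35, 7.51 and 7.51, a 6.72-fold fall. Kif2c, a kinesin that depolymerizes microtubules, fell 6.96-fold, and Aspm, a spindle pole protein, fell 6.65-fold. Bub1b, a checkpoint kinase, fell 6.47-fold. Sapcd2, which lies outside the list, fell 7.3-fold.

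DNA replication genes fell with them, and are read against 19.8% lower and 25.2% higher over all genes. Of 22 measured genes of origin licensing and the replicative helicase, 21 fell and 0 rose (median -1.63). Mcm5, a helicase subunit, was at 11.35, 11.25, 11.58 and 11.39 at 1 mM and at 9.27, 9.18, 9.08 and 9.08 at 5 mM. Its fall was 4.72-fold with no overlap between the groups. Mcm2, another subunit, fell 3.42-fold, and Mcm10, which helps to start the helicase, fell 4.22-fold by its brightest probe, while another of its 3 probes gave -0.29. Of 25 genes of the replication fork and nucleotide supply, 23 fell and 0 rose (median -1.47). Lig1, the ligase that joins Okazaki fragments, fell 5.03-fold, with its 4 probes between -2.33 and -0.86. Pold1, the catalytic subunit of DNA polymerase delta, fell 4.12-fold, and Chaf1a, which places histones on new DNA, fell 4.04-fold.

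Histone genes did not move as a block, and are read against 19.8% lower and 25.2% higher over all genes. Of 43 measured replication-dependent histone genes, 22 fell and 15 rose, with a median of -0.38. The 10 genes that fell by more than 1 on the log2 scale were all H2A genes. H2ac11 was at 10.95, 10.63, 10.53 and 10.88 at 1 mM and at 7.77, 7.32, 7.52 and 7.82 at 5 mM, an 8.82-fold fall. H2ac15 was at 13.23, 13.06, 13.01 and 13.22 against 10.45, 10.16, 10.02 and 10.19, a 7.6-fold fall. H2ac21, H2ac12 and H2ac22 fell 7.7-fold, 7.03-fold and 6.46-fold. In the other direction, and named after their values were seen, H4c8 rose by 1.37, H2ac19 by 0.99 and H2ac18 by 0.94. These genes are near-identical copies in clusters, probe sequences were not used here, and probes for different members may share targets, so the values of single members are uncertain. Of 10 replication-independent histone genes 4 fell and 1 rose (median -0.22). H2ax, the variant phosphorylated at DNA breaks, fell 2.82-fold, H2az1 fell 1.77-fold, and H2aj rose 1.46-fold.

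Cell cycle regulators were called in both directions. Of 29 measured cyclins, cyclin-dependent kinases and regulators, 16 fell and 7 rose (median -0.36). The share that fell was above the 19.8% over all genes, and the share that rose was near the 25.2% over all genes. Foxm1, a transcription factor of G2 and M genes, was at 8.41, 8.41, 8.30 and 8.20 at 1 mM and at 6.44, 6.07, 5.96 and 5.89 at 5 mM, a 4.72-fold fall. Cdk1, the mitotic kinase, fell 4.7-fold by its brighter probe, whereas its other probe gave -0.13, and Cdc25c, the phosphatase that activates it, fell 4.15-fold. The risers, listed here after their values were seen except Cdkn1a and Ccnd1, were the D-type cyclins Ccnd1 (0.53), Ccnd2 (1.54) and Ccnd3 (0.67), the inhibitors Cdkn1a (0.97), Cdkn1c (1.23) and Cdkn2b (0.52), and Rb1 (0.71).
Cdkn1a (p21), a kinase inhibitor induced by p53, was at 11.22, 11.61, 11.33 and 11.48 at 1 mM and at 12.36, 12.29, 12.45 and 12.39 at 5 mM. All 4 arrays at 5 mM were above those at 1 mM, and the rise was 0.97 ± 0.09 or 1.95-fold, with its 3 probes between 0.97 and 1.07. It belongs to the list of p53 targets, of which 17 of 20 rose and 0 fell (median 0.59). Ccng1 rose 1.99-fold and Mdm2, the ligase that degrades p53, rose 1.87-fold. Of 16 apoptosis regulators 3 rose and 2 fell, shares below those over all genes (25.2% and 19.8%), and with BeadChip as a term 0 were higher and 1 was lower. Bid, a death agonist, fell 1.72-fold and Casp6 rose 1.52-fold, while Bcl2l11 rose 1.29-fold by its brightest probe. Another of the 3 Bcl2l11 probes gave 0.008, and the mean of its probes was not called (adjusted p = 0.111). Casp6 and Bcl2l11 were not called with BeadChip as a term (adjusted p = 0.124 and 0.125).

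**Figure D2:**
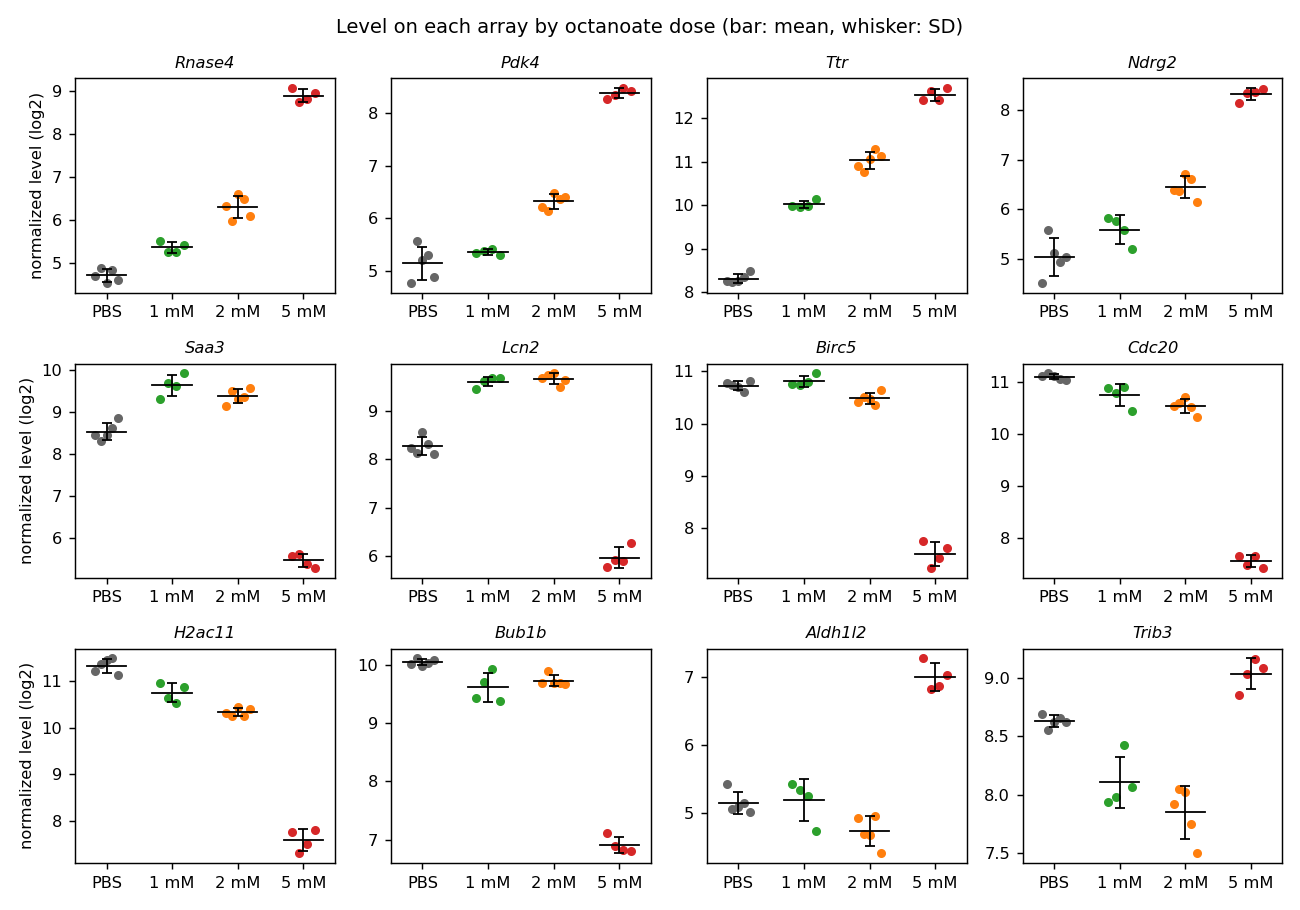
Level (log2 of normalized signal) of 12 genes on each array by dose, with 1 point per array, a bar at the group mean and a whisker of SD; each panel has its own axis, which does not start at 0. For Saa3, Lcn2, Birc5, Cdc20 and Bub1b the 2 mM mean is much closer to the 1 mM mean than to the 5 mM mean. Ttr steps up at each dose, and Aldh1l2 is above all other groups only at 5 mM.

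Ribosome biogenesis genes fell too, by less. Of 20 measured, 17 fell and 0 rose (median -0.70), beside 19.8% and 25.2% over all genes. Ncl (nucleolin), a nucleolar protein of ribosomal RNA processing, was at 9.77, 9.71, 9.76 and 9.70 at 1 mM and at 8.41, 8.29, 8.52 and 8.23 at 5 mM, a 2.59-fold fall. Tcof1, which promotes ribosomal DNA transcription, fell 3.07-fold and Mybbp1a fell 2.43-fold.

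The largest fall of all named genes was that of Saa3, an acute-phase serum amyloid A. Its levels were 9.31, 9.69, 9.63 and 9.92 at 1 mM and 5.59, 5.62, 5.39 and 5.29 at 5 mM, so that it fell by 4.16 ± 0.13 or 17.9-fold (adjusted p = 5.13e-15). The PBS arrays, at 8.32 to 8.85, lay below the 1 mM arrays and above the 5 mM arrays, so the order of this gene over dose was not monotonic.
Lcn2 (lipocalin 2), which withholds iron from bacteria, was at 9.46, 9.62, 9.68 and 9.67 at 1 mM and at 5.78, 5.91, 5.90 and 6.27 at 5 mM, a fall of 12.5-fold. Its PBS arrays were at 8.11 to 8.56, again between the other groups. Hp (haptoglobin), which binds free haemoglobin, was at 7.10, 7.54, 7.34 and 7.53 against 5.64, 6.03, 5.84 and 6.25, a 2.7-fold fall. Acute-phase genes as a list were mixed, with 6 of 13 lower and 1 higher, and a median of -0.33. Over all genes 19.8% were lower and 25.2% higher, and 3 of the 13 were detected on no 1 mM array.

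Cytokine genes and NF-kB targets fell more evenly. Of 18 measured, 16 fell and 0 rose, with a median of -1.20 (-1.09 with BeadChip as a term). Over all genes 19.8% fell and 25.2% rose. Cxcl1, a neutrophil chemokine, was at 12.60, 12.49, 12.48 and 12.44 at 1 mM and at 10.88, 10.86, 10.95 and 10.91 at 5 mM, a 3.04-fold fall. Ccl7, a monocyte chemokine, fell 3.54-fold, and Vcam1, an adhesion molecule, fell 2.91-fold by its brightest probe and by 0.42 on the log2 scale by another. Cd14, a co-receptor for bacterial lipopolysaccharide that was listed as a macrophage marker, fell 1.8-fold. Csf1r, the other measured macrophage marker, differed by 0.12 and was not called. Interferon-stimulated genes did not fall, with 6 of 16 higher and 0 lower (median 0.22). The share higher over all genes was 25.2%, and 1 of the 16 was detected on no 1 mM array. Usp18, which removes ISG15 from proteins, rose 3.42-fold by its brighter probe, while its other probe gave 0.77. Ifi27 rose 2.74-fold, and the immunoproteasome subunit Psmb9, detected on 2 of the 4 arrays at 1 mM, rose 2-fold. H2-M2, a class I major histocompatibility gene, fell 7.01-fold. D17H6S56E-5 fell 7.89-fold by its brighter probe and by 0.22 by its other probe.

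**Figure D3:**
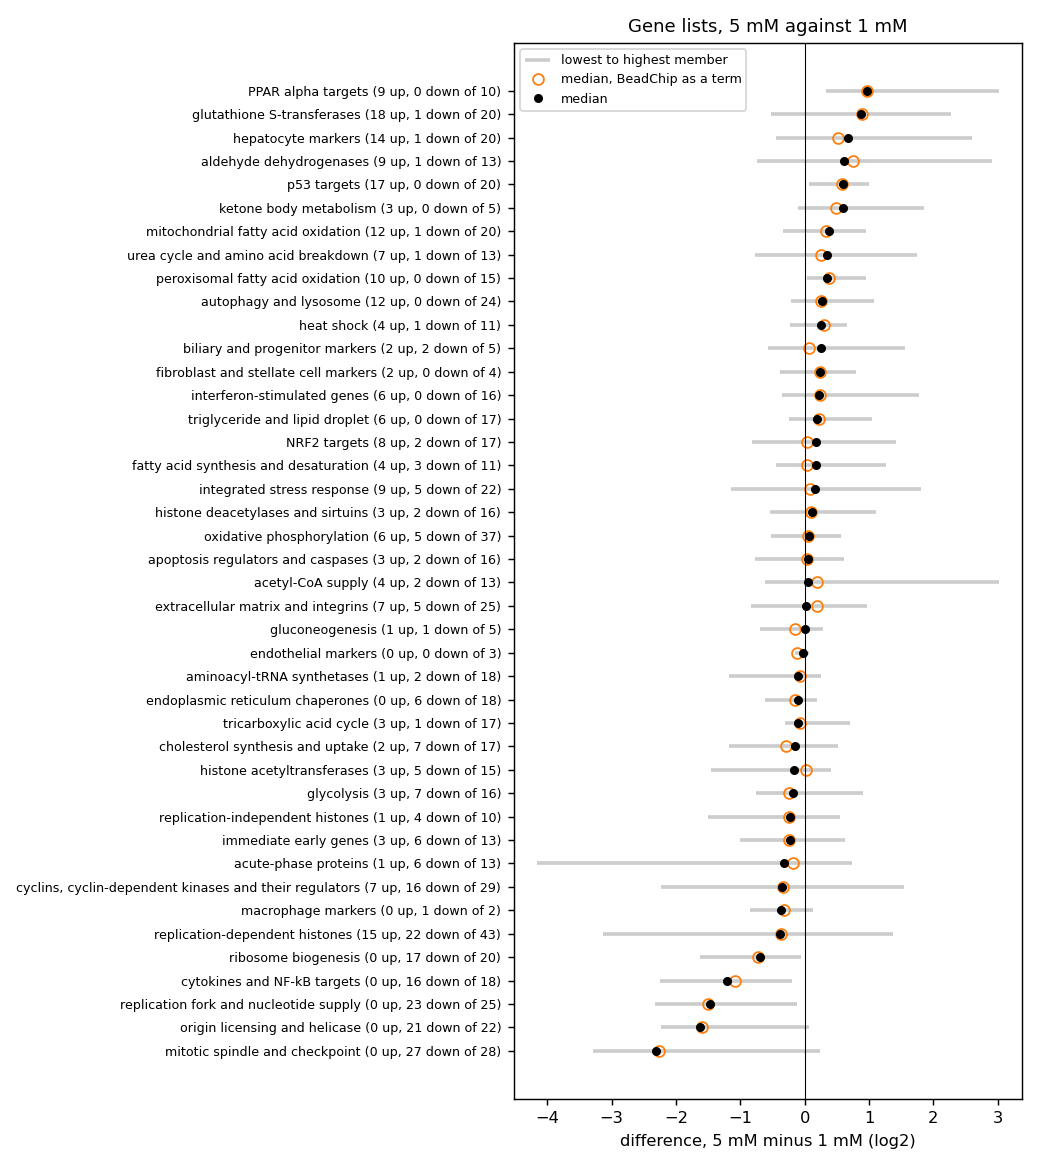
Difference between 5 mM and 1 mM (log2) in each of 42 gene lists: the black point is the median of the measured members, the open circle the median with BeadChip as a term, and the grey line runs from the lowest to the highest member. The mitotic list has the lowest median at -2.31 and the PPAR alpha list the highest at 0.97, and numbers beside each name count members called higher (up) and lower (down).

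Rnase4, a secreted ribonuclease, rose most among named genes. It was at 5.51, 5.26, 5.26 and 5.41 at 1 mM and at 9.07, 8.74, 8.81 and 8.96 at 5 mM. The rise was 3.53 ± 0.13 or 11.6-fold (adjusted p = 2.36e-14), although its other probe gave 1.08. A probe without a single gene symbol rose further and is not named here. Frmd5, a FERM-domain protein, rose 8.61-fold by its brighter probe, which was detected on 2 of the 4 arrays at 1 mM, and by 0.39 by its other probe. Ndrg2 was at 5.82, 5.76, 5.58 and 5.18 against 8.15, 8.36, 8.37 and 8.43, a 6.68-fold rise, and its other probe gave 1.28.
Others among the largest rises were Btn1a1, a protein of milk fat globules (6.26-fold, detected on 1 of the 4 arrays at 1 mM), Fbxo2, which marks glycoproteins for degradation (5.91-fold), and Matn4, a matrix protein (5.88-fold). Xpnpep2, a membrane aminopeptidase, rose 5.81-fold, but its other probe gave 0.17. Ckmt1, mitochondrial creatine kinase, rose 5.74-fold and Sprr2g, a small proline-rich protein, rose 5.72-fold. Sema4g, a semaphorin, rose 5.67-fold by its brighter probe, detected on 3 of the 4 arrays at 1 mM, and gave -0.08 by the other. Sobp was not detected on any 1 mM array, and its 5 mM level was at least 4.76-fold higher. Such a bound compares the 5 mM mean with the higher, per 1 mM array, of the lowest detected signal and the probe's own. Of 4361 genes with several measured probes, 40 had probes called in opposite directions, and 1667 had probes of which some were called and others were not. Fold changes are those of the brightest probe, and other probes are given for some genes only.

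Most measured PPAR alpha targets rose, but of 22 listed, 12 had no tested probe. Of 10 measured, 9 rose and 0 fell, with a median of 0.97 (0.96 with BeadChip as a term). Over all genes 25.2% were higher. Detection on the 4 arrays at 5 mM alone meets the probe filter, and 2 of the 10 were detected on no 1 mM array. Pdk4, the kinase that switches off pyruvate dehydrogenase and so spares glucose carbon, was at 5.35, 5.37, 5.42 and 5.29 at 1 mM and at 8.27, 8.35, 8.48 and 8.43 at 5 mM. The 1 mM arrays lay within the range of the PBS arrays (4.77 to 5.56), and the 5 mM arrays stood 8.14-fold above them (adjusted p = 3.94e-13).
Angptl4, which inhibits lipoprotein lipase, was at 9.99, 10.16, 9.96 and 10.07 against 11.35, 11.68, 11.40 and 11.44, a 2.67-fold rise, and Acot1, an acyl-CoA thioesterase, rose 1.92-fold. Of other genes chosen for mention whatever their result, no named probe was used here for H1f0, and that for Fgf21 did not pass the detection filter.

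Fatty acid oxidation genes rose less steeply. The counts here are read against 25.2% higher and 19.8% lower over all genes. In mitochondria 12 of 20 rose and 1 fell (median 0.38). Slc25a20, the carnitine-acylcarnitine carrier, rose 1.94-fold, Acaa2, the last thiolase of the cycle, rose 1.93-fold, and Etfdh, which passes the electrons on to ubiquinone, rose 1.9-fold. In peroxisomes 10 of 15 rose and 0 fell (median 0.34). The thiolase Acaa1b rose 1.95-fold, the oxidase Acox2 rose 1.74-fold, and Ech1 rose 1.39-fold but was not called with BeadChip as a term (adjusted p = 0.0533). Of 5 genes of ketone body metabolism 3 rose and 0 fell (median 0.59). Slc16a6, whose zebrafish counterpart exports ketone bodies from liver, rose 3.61-fold. Bdh1, which makes beta-hydroxybutyrate and was detected on 3 of the 4 arrays at 1 mM, rose 2.27-fold, while its other probe gave 0.55. Bdh2 rose 1.51-fold.

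Of 13 measured genes of acetyl-CoA supply, which bear on the title of the series, 4 rose and 2 fell (median 0.05), near the shares over all genes (25.2% and 19.8%). Acss2, which makes acetyl-CoA from acetate in the cytosol and nucleus, was at 6.90, 6.24, 6.48 and 6.71 at 1 mM and at 8.36, 8.04, 7.91 and 8.13 at 5 mM. The groups did not overlap and the rise was 1.53 ± 0.14, or 2.89-fold (adjusted p = 3.22e-08). Acly, which makes acetyl-CoA from citrate, was at 11.64, 11.78, 11.99 and 11.82 against 11.70, 11.76, 11.69 and 11.71. Its arrays overlapped and it was not called, at -0.09 ± 0.10 (adjusted p = 0.494), with a sign that turned to 0.13 under median scaling and to 0.013 with BeadChip as a term.
Slc25a1, the mitochondrial citrate carrier, rose 1.37-fold. Pdk1, another pyruvate dehydrogenase kinase, fell 1.54-fold, a call lost both with BeadChip as a term (adjusted p = 0.185) and under median scaling (adjusted p = 0.171).

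Enzymes that set or remove histone acetylation are read against 25.2% higher and 19.8% lower over all genes, and their shares did not exceed these except for acetyltransferases that fell. Of 15 acetyltransferases 5 fell and 3 rose (median -0.16), and with BeadChip as a term 3 were lower and 1 was higher (median 0.01). Hat1, which acetylates newly made H4, was at 11.59, 11.77, 11.94 and 11.88 at 1 mM and at 10.60, 10.17, 10.29 and 10.30 at 5 mM, a 2.74-fold fall with no overlap. Kat5 fell 1.61-fold and Kat7 1.39-fold, and neither was called under median scaling, where they gave -0.37 and -0.14. Kat7 was not called with BeadChip as a term either (adjusted p = 0.0525). Ep300 and Crebbp, the general co-activator acetyltransferases, were not called, at -0.24 and -0.16, and were named after their values were seen. Of 16 deacetylases and sirtuins 3 rose and 2 fell (median 0.12). Hdac11 rose 2.15-fold and Hdac8 1.58-fold. Sirt1, an NAD-dependent deacetylase, fell 1.46-fold, or 0.21 on the log2 scale and no longer called under median scaling.

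The lists of lipid synthesis had no common direction among them, and are read against 25.2% higher and 19.8% lower over all genes. Of 11 genes of fatty acid synthesis and desaturation 4 rose and 3 fell (median 0.17). Scd1, the delta-9 desaturase, was at 10.58, 10.60, 10.72 and 10.67 against 11.94, 11.79, 11.99 and 11.87, a 2.39-fold rise, and Elovl5, an elongase, rose 1.27-fold. Fads2, the delta-6 desaturase, fell 1.26-fold, but gave -0.02 under median scaling. Of 17 genes of triglycerides and lipid droplets 6 rose and 0 fell (median 0.19). Lpin1, a phosphatidate phosphatase, rose 2.06-fold and Cideb, a droplet protein, rose 1.57-fold. Pnpla3, undetected at 1 mM, was at least 1.19-fold higher at the larger dose. Of 17 cholesterol genes 7 fell and 2 rose (median -0.15). Mvk (mevalonate kinase) fell 2.26-fold, Fdps, which makes farnesyl diphosphate, fell 1.7-fold, and Cyp51, lanosterol demethylase, fell 1.65-fold.

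Central carbon genes gave list medians near 0. Of 16 glycolytic genes 7 fell and 3 rose (median -0.19). The share that fell was above the 19.8% over all genes, and the share that rose was below 25.2%. The phosphofructokinases went opposite ways, with the liver form Pfkl 1.69-fold lower and the muscle form Pfkm 1.87-fold higher. The other Pfkl probe gave -0.32 and was not called. Slc2a1, a glucose transporter, fell 1.56-fold, and was not called under median scaling (-0.35). Of 5 gluconeogenic genes 1 rose and 1 fell (median 0.00). Slc37a4, the glucose-6-phosphate carrier, fell 1.62-fold (adjusted p = 0.0218), and Ppargc1a, a co-activator of oxidative genes, rose 1.22-fold (adjusted p = 0.0405). Their arrays overlapped between the groups, and of 19 alternatives 9 lost the call for Slc37a4 and 12 that for Ppargc1a. Of 17 tricarboxylic acid cycle genes 3 rose and 1 fell (median -0.11), shares below those over all genes. The cytosolic Idh1 rose 1.63-fold. Suclg1 rose 1.26-fold by its brightest probe but was not called with BeadChip as a term (adjusted p = 0.0949). Another of the 3 Suclg1 probes gave 0.13. Idh3g fell 1.23-fold but gave -0.07 under median scaling. Of 37 oxidative phosphorylation genes 6 rose and 5 fell (median 0.07), below the shares over all genes. Uqcrh, a subunit of complex III, rose 1.48-fold, Ndufa1, of complex I, rose 1.32-fold, and Ndufs8, also of complex I, fell 1.44-fold, or to -0.30 and not called under median scaling.

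Conjugating and aldehyde-clearing enzymes rose, and are read against 25.2% higher and 19.8% lower over all genes. Of 20 glutathione S-transferases 18 rose and 1 fell, with a median of 0.87 (0.88 with BeadChip as a term). Gsta4, which conjugates the lipid peroxidation product 4-hydroxynonenal, was at 8.20, 8.03, 8.16 and 8.19 at 1 mM and at 10.41, 10.62, 10.23 and 10.40 at 5 mM, a 4.83-fold rise. Gstt3 rose 2.46-fold and Gstk1, a mitochondrial and peroxisomal member, rose 2.19-fold. Gsta3 was the member that fell, by 0.52, and was named after its value was seen. Members of the alpha and mu classes are close in sequence and may share probe targets.
Of 13 aldehyde dehydrogenases 9 rose and 1 fell (median 0.61). Aldh1a7, detected on 3 of the 4 arrays at 1 mM, rose 7.55-fold and the retinaldehyde dehydrogenase Aldh1a1 rose 4.2-fold. Targets of NRF2, the oxidant-responsive factor, were less uniform, with 8 of 17 higher and 2 lower (median 0.18). With BeadChip as a term 3 were higher and 1 was lower (median 0.04). That fit gave 14.8% higher and 10.7% lower over all genes, so the share of NRF2 targets higher there was near that over all genes. Ephx1, microsomal epoxide hydrolase, rose 2.67-fold, and Gclc, which limits glutathione synthesis, rose 1.64-fold, a call lost with BeadChip as a term (adjusted p = 0.125). Hmox1, which degrades haem, fell 1.76-fold.

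Of 20 measured hepatocyte markers 14 rose and 1 fell, with a median of 0.67, beside 25.2% and 19.8% over all genes. With BeadChip as a term 9 were higher and 0 lower, with a median of 0.51. Ttr (transthyretin), a plasma carrier of thyroxine, was at 9.99, 9.97, 9.99 and 10.15 at 1 mM and at 12.43, 12.62, 12.41 and 12.70 at 5 mM. The PBS arrays were at 8.25 to 8.48 and the 2 mM arrays at 10.78 to 11.29, so that the 4 dose groups did not overlap. The rise was 2.52 ± 0.10 or 5.73-fold (adjusted p = 1.95e-13). Apoc1, an apolipoprotein, rose 6.09-fold with its probes at 2.02 and 2.61, the brighter of which was detected on 1 of the 4 arrays at 1 mM, and Ambp, the precursor of alpha-1-microglobulin, rose 2.25-fold. Of 13 genes of the urea cycle and amino acid breakdown 7 rose and 1 fell (median 0.35). Ddc, aromatic amino acid decarboxylase, was at 5.51, 5.88, 5.84 and 5.80 against 7.47, 7.48, 7.61 and 7.44, a 3.35-fold rise. Fah, the last enzyme of tyrosine breakdown, rose 1.74-fold and Gstz1, the enzyme before it, rose 1.57-fold.

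Markers of other cells were few and mostly dim, and are read against 25.2% higher and 19.8% lower over all genes. Of 5 biliary and progenitor markers 2 rose and 2 fell (median 0.25). Afp (alpha-fetoprotein), a fetal liver protein, had no detected signal at 1 mM, and its 5 mM level was at least 2.57-fold above the bound. The cholangiocyte keratins Krt7 and Krt19 fell 1.48-fold and 1.22-fold. Neither was called with BeadChip as a term (adjusted p = 0.147 and 0.109) or under median scaling, where Krt19 turned to 0.025. Of 4 fibroblast and stellate markers 2 rose and 0 fell (median 0.24). However, 2 of the 4 were detected on no 1 mM array, and detection at 5 mM alone can meet the probe filter. Des (desmin), detected on 2 of the 4 arrays at 1 mM, rose 1.74-fold, and Dcn (decorin), undetected at 1 mM, was at least 1.11-fold higher at the larger dose but was not called with BeadChip as a term (adjusted p = 0.116). Of 2 macrophage markers 1 fell and 0 rose (median -0.36), and of 3 endothelial markers 0 were called (median -0.03). The part of other cell types in the hepatocyte and cytokine results was not tested.

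Stress response genes were called in both directions, and are read against 25.2% higher and 19.8% lower over all genes. Of 22 genes of the integrated stress response 9 rose and 5 fell (median 0.15). The share that fell was near that over all genes. Aldh1l2, the mitochondrial 10-formyltetrahydrofolate dehydrogenase, was at 5.43, 5.34, 5.26 and 4.74 at 1 mM and at 7.28, 6.83, 6.87 and 7.03 at 5 mM. This was a 3.51-fold rise from a level detected on 3 of the 4 arrays at 1 mM, and its other probe gave 0.58. Atf5, a transcription factor of this response, was at 10.54, 10.49, 10.64 and 10.57 against 11.68, 11.79, 11.86 and 11.84, a 2.35-fold rise, whereas Atf3 fell 2.21-fold. Of 18 aminoacyl-tRNA synthetases 2 fell and 1 rose (median -0.10), shares below those over all genes. Vars fell 2.27-fold. Tars fell 1.33-fold and Qars rose 1.19-fold, and neither was called with BeadChip as a term (adjusted p = 0.185 and 0.255). Of 19 alternatives, 6 lost the call for Tars and 5 that for Qars. The other Tars probe gave 0.003. Of 18 chaperones of the endoplasmic reticulum 6 fell and 0 rose (median -0.10). Calr (calreticulin) fell 1.53-fold, Creld2 1.44-fold and Hsp90b1 1.27-fold, and these 3 were not called under median scaling. Hsp90b1 was not called with BeadChip as a term either (adjusted p = 0.0774). Of 11 heat shock genes 4 rose and 1 fell (median 0.26). Hsph1 rose 1.58-fold and Bag3, a co-chaperone, rose 1.31-fold. Hspb1 also rose 1.31-fold, but gave 0.15 with BeadChip as a term. Of 24 genes of autophagy and the lysosome 12 rose and 0 fell (median 0.26), or 6 and 0 with BeadChip as a term. Gabarapl1, a member of the family that binds autophagosome membranes, rose 2.1-fold, Atg12 1.59-fold and Wipi1 1.41-fold.

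Matrix and immediate early genes had no common direction either. Of 25 matrix and integrin genes 7 rose and 5 fell (median 0.03), close to the shares over all genes. The hemidesmosome integrin Itgb4 rose 1.95-fold, the laminin chain Lamb3 rose 1.58-fold, and Itgb6 fell 1.78-fold by its brightest probe while another of its 4 probes gave 0.12. Of 13 immediate early genes 6 fell and 3 rose (median -0.23), beside 19.8% and 25.2% over all genes. Ccn1, a target of YAP, fell 2.01-fold, Dusp6, which switches off ERK, rose 1.55-fold, and Klf4 rose 1.54-fold but gave 0.34 with BeadChip as a term and was not called there (adjusted p = 0.178).

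With BeadChip as a term fewer genes were called in all, at 14.8% higher and 10.7% lower. Some list counts moved by over 1.5 times beside those given above. Members called higher went from 10 to 6 of the peroxisomal list, from 3 to 1 of the tricarboxylic acid cycle, from 6 to 2 of oxidative phosphorylation, from 4 to 2 of heat shock, from 2 to 1 of the cholesterol, biliary and fibroblast lists each, from 3 to 1 of immediate early genes, and from 1 to 0 of gluconeogenesis and of aminoacyl-tRNA synthetases. Members called lower went from 7 to 4 of the cholesterol and of the glycolysis list, from 5 to 2 of oxidative phosphorylation and of the matrix list, from 6 to 2 of immediate early genes, from 5 to 3 of the integrated stress response, from 2 to 1 of deacetylases and sirtuins, from 2 to 0 of acetyl-CoA supply and of biliary markers, and from 1 to 0 of mitochondrial fatty acid oxidation, of heat shock and of hepatocyte markers.

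Over the alternatives tried, 13 of the 42 list medians changed sign at least in 1 setting, all of them within 0.25 of 0 in the reported fit. They were the lists of apoptosis (-0.01 to 0.32), acetyl-CoA supply (-0.03 to 0.28), fatty acid synthesis (-0.01 to 0.27), cholesterol (-0.30 to 0.18), gluconeogenesis (-0.15 to 0.15), the tricarboxylic acid cycle (-0.12 to 0.20), biliary markers (-0.02 to 0.46), endothelial markers (-0.12 to 0.02), aminoacyl-tRNA synthetases (-0.17 to 0.13), endoplasmic reticulum chaperones (-0.18 to 0.01), histone acetyltransferases (-0.26 to 0.07), matrix genes (-0.04 to 0.32) and immediate early genes (-0.26 to 0.02).

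The 2 mM arrays show where between the compared doses the changes appeared. For the 703 genes with a called difference of at least 2-fold, the share of the change from 1 mM to 5 mM that was already present at 2 mM had a median of 23.6% and quartiles of 11% and 36.3%. A straight line in dose would give 25% and a line in log dose 43.1%. Rises had a median share of 33.4% and falls one of 11.7%. The 2 mM mean lay between the others for 656 genes, beyond the 5 mM mean for 0, and on the far side of the 1 mM mean for 47, of which 44 were falls. Among these 47 the smallest adjusted p for 2 mM against 1 mM was 0.0705, for Aldh1l2.
Departure of the 2 mM mean from the straight line was called for 202 probes, 172 above it and 30 below, out of 2415 at an unadjusted p under 0.05. By gene this was 122 above (1.15%) and 19 below (0.179%). These counts depend on the setting: they were 21 with the replicate block, 40 under median scaling, 356 without background correction, 123 with BeadChip as a term, 68 without 1 mM replicates 1 and 4, 125 without 2 mM replicate 5, 134 without 2 mM replicate 2 and 703 against a line in log dose.

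**Figure D4:**
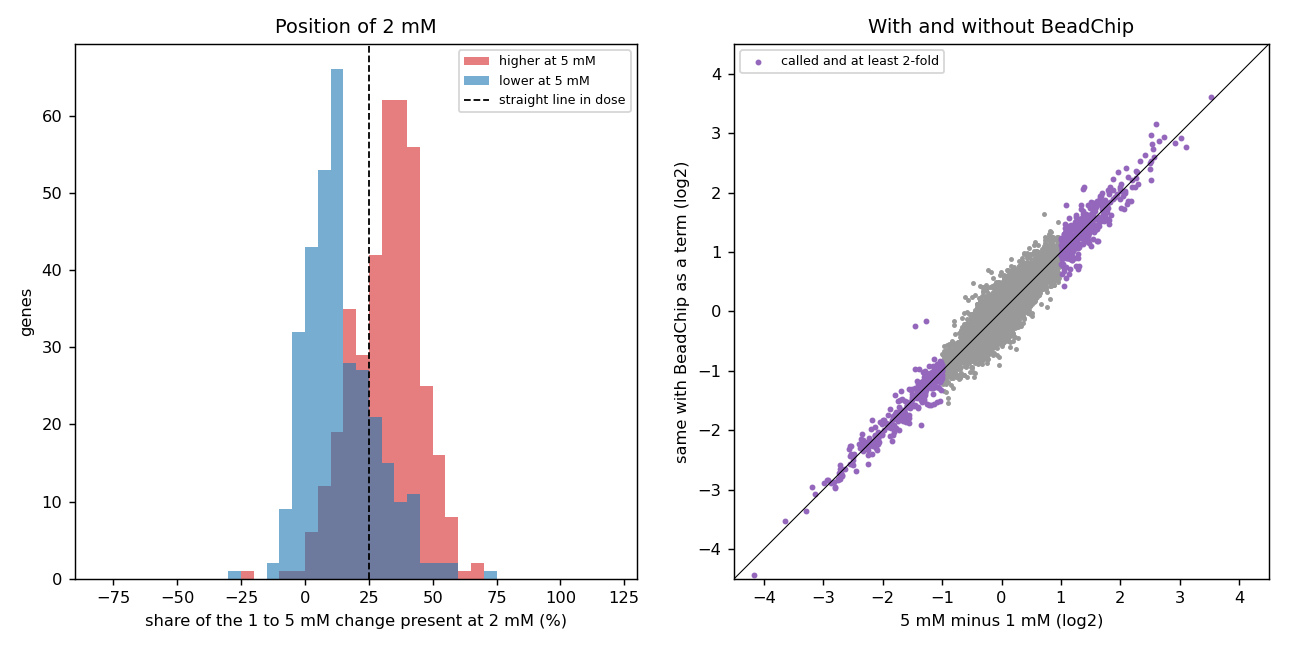
Left, number of genes by the share (%) of their 1 mM to 5 mM change that was present at 2 mM, for 378 rises (red) and 325 falls (blue) of at least 2-fold, with the 25% of a straight line dashed; falls centre on 11.7% and rises on 33.4%. Right, the difference (log2) of each of 10605 genes without (horizontal) and with (vertical) BeadChip as a term, the 703 genes in purple, with the line of equality; all of the purple points keep their sign.

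Of the 5 genes farthest above the line, 4 fell from 1 mM to 5 mM, and their 2 mM arrays overlapped or exceeded those at 1 mM. Lcn2 stood 0.97 above the line, with 2 mM arrays at 9.67, 9.75, 9.78, 9.49 and 9.63, which overlap the 1 mM arrays. Bub1b stood 0.79 above it, with 2 mM arrays at 9.69, 9.89, 9.68, 9.69 and 9.67 inside the 1 mM range of 9.38 to 9.93, and 5 mM arrays at 7.12, 6.89, 6.83 and 6.81. Saa3 stood 0.78 and Hp 0.74 above it, and the 5 Hp arrays at 2 mM (7.59 to 7.84) were all above those at 1 mM.
Keg1 stood 0.82 above the line and peaked at 2 mM, where its arrays read 6.66, 6.47, 6.93, 6.68 and 6.58, against 5.48 to 5.81 at 1 mM and 6.34 to 6.51 at 5 mM. Below the line, Aldh1l2 departed by -0.90, with 2 mM arrays at 4.93, 4.70, 4.69, 4.97 and 4.42. Trib3, a pseudokinase of the integrated stress response, departed by -0.49, with 2 mM arrays from 7.50 to 8.05, 1 mM arrays from 7.94 to 8.43 and 5 mM arrays from 8.85 to 9.16. Its PBS arrays, at 8.56 to 8.69, were above those at 1 mM and 2 mM. Urad, an enzyme of urate breakdown, departed by -0.43, since its 2 mM arrays (4.55 to 4.91) overlapped those at 1 mM, where it was not detected, and the 5 mM arrays were at least 3.17-fold higher. Zc3h18 (-0.62) and Shc4 (-0.43) also departed, and Shc4 was not called between 5 mM and 1 mM, at -0.23. The calls for Zc3h18, Trib3, Urad and Shc4 were lost under median scaling, and that for Shc4 in 19 of 23 alternatives.

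The group means of 2 mM and PBS share no array with those of 5 mM and 1 mM, although they share BeadChips. Both comparisons came from the same normalization and the same fit to all arrays of the series. They therefore share its estimate of spread, and their calls are not independent. The comparison of 2 mM with PBS called 2348 genes higher (22.1%) and 1981 lower (18.7%). Of the 378 genes at least 2-fold higher at 5 mM than at 1 mM, 317 were higher at 2 mM than with PBS, 2 were lower and 59 were not called. These 317 were 83.9% of the former list and 13.5% of the latter. Of the 325 genes at least 2-fold lower, 257 were lower at 2 mM than with PBS, 8 were higher and 60 were not called. These 257 were 79.1% of the former and 13% of the latter.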

How the data were processed

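RNA of AML12 cells was labelled with biotin and hybridized in 1 colour to Illumina mouse BeadChips, and 8 arrays entered the contrast. For 45281 probes, mean bead intensity was deposited without normalization, per the file headers, each beside a detection p-value that was also deposited. A second deposited table holds the authors' processed values on a scale like log2, used as an alternative. Its array medians were 7.352 to 7.357. Against log2 intensities of the same arrays, deviations correlated at 0.978 to 0.998 with slopes of 0.893 to 0.964, so it ran in the same direction and was not centred by gene. The sources used here give neither its transformation nor its normalization. The submitters' processing notes name lumi, with no version.

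Intensities were background-corrected, given an offset of 16, quantile-normalized and logged with neqc of limma 3.58.1 (R 4.3.3, statmod 1.5.0). The offset understates fold changes of dim probes. Probe annotation gave 34885 probes 1 symbol, 18 several and 10378 none here, and RefSeq's current symbol replaced the older one for 34807 by Entrez ID. Each gene was represented by whichever of its detected probes had the highest mean level. Group means were fitted to all 18 arrays with lmFit and eBayes of limma (14 residual degrees of freedom, median residual SD 0.175), and p-values were adjusted by Benjamini-Hochberg over all tested probes. The departure at 2 mM was a contrast of the same fit. The script was tested on simulated data.

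Text names the 15 largest rises and falls with no overlap of arrays, the 3 members of each list with the smallest adjusted p, 9 genes whatever their result (1 of them is not reported here) and the 5 departures farthest to each side. Members, lists (42, with 900 genes, 692 tested and 66 without a named probe) and the naming rule were chosen with earlier results of these data known. Alternatives changed the background correction, scaling, probe filter, BeadChip term, arrays fitted, replicate left out and probe summary. Leaving out 1 mM replicates 1 and 4 together was chosen after seeing the data.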

Additional observations from a re-analysis of the deposited data

Results flagged for a closer look

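Among 302 gene and dose groups of named genes, 17 held 1 array far from the others of its group by Dixon's criterion, and chance alone gives about 1 in 20. Of these, 6 were on 1 mM replicate 4 and 4 on 5 mM replicate 2. On 1 mM replicate 4, the log2 level was 10.15 for Ttr (others 9.97 to 9.99), 9.9 for Lig1 (10.16 to 10.22), 7.53 for Chaf1a (7.82 to 7.84), 9.37 for Slc25a20 (8.9 to 8.95), 11.26 for Cd14 (11.37 to 11.39) and 11.03 for Itgb6 (10.95 to 10.96). On 5 mM replicate 2 it was 7.96 for Aldh1a7 (8.24 to 8.26), 10.93 for Ndufs8 (11.07 to 11.09), 11.79 for Qars (11.56 to 11.58) and 8.72 for Creld2 (8.95 to 8.98). On 1 mM replicate 1 it was 11.47 for Qars (11.33 to 11.35) and 9.23 for Creld2 (9.5 to 9.52). Single arrays stood apart for D17H6S56E-5 on 5 mM replicate 1 (7.43, others 6.81 to 6.91), Chaf1a on 5 mM replicate 3 (5.55, others 5.8 to 5.82), Acot1 on 5 mM replicate 4 (13.4, others 13.5 to 13.52), Tcof1 on 1 mM replicate 2 (9.72, others 9.55 to 9.58) and Bub1b on 2 mM replicate 2 (9.89, others 9.67 to 9.69). Of these genes, Qars lost its call between 5 mM and 1 mM without 5 mM replicate 2, where its difference was 0.19.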

How the results depend on the processing

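Calls between 5 mM and 1 mM numbered 7049 to 8433 under all alternatives except BeadChip as a term (4460), and 7447 to 7916 with 1 array left out. The count of departures at 2 mM was the least stable value: 356 without background correction, 40 under median scaling, 123 with BeadChip as a term, 130 from the octanoate arrays alone, 703 against a line in log dose, 68 without 1 mM replicates 1 and 4, and 125 to 209 with 1 array left out. The difference in detected probes was 991 to 1391 with 1 array left out, and the exact permutation p was then 0.0571 without a 1 mM array and 0.0286 without a 5 mM array. Of 149 named results, those whose direction reversed were Krt19 (0.025 under median scaling) and Acly (0.13 under median scaling, 0.013 with BeadChip as a term), and over all other comparisons of a named result with an alternative, 90 lost the call and 2779 kept both direction and side of the threshold. The cause was not tested. Same-numbered replicates did not deviate together (correlations -0.019 to 0.054), which does not settle whether the numbers pair samples. With the replicate block there were 7379 calls between the doses and 21 departures. The groups compared lie on different BeadChips, and only the 2 mM arrays link them. Signals near background limit the lower bounds given for genes not detected at 1 mM.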
